A study of Homo sapiens with 3 samples.

Results

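The ligands, co-receptors and antagonists of the NODAL pathway are described here as 8 genes, matched by symbol among the 38606 genes that each of 3 single-cell libraries lists. They are the ligands NODAL and GDF3, the co-receptors TDGF1 and CFC1, and the secreted antagonists LEFTY1, LEFTY2, CER1 and FST. All 8 symbols were found, each with 1 Ensembl ID. No measured value entered the matching, but the members were chosen with earlier results of these data known. The cells were HES3 Mixl1:GFP cells, a human embryonic stem cell line with a green fluorescent protein reporter at MIXL1, grown as colonies on micropatterned coverslips in mTeSR Plus. Every library lists 10 µM of Y-27632 at seeding, and 24 h of growth before 48 h of treatment. The BMP4 group received 50 ng/mL of BMP4. CHIR99021 blocks the kinase GSK3 and so turns on the WNT pathway, and it was given at 6 µM to the CHIR group. The CHIR+Activin group had Activin A at 100 ng/mL and CHIR99021 at 3 µM, so it differs from the CHIR group in both agents. Each group was 1 library of about 10 pooled colonies, dissociated before capture. No untreated library is among the samples, the place of a cell in its colony is lost, and treatment and library cannot be told apart.

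NODAL is a ligand of the TGF-beta family that patterns the primitive streak, mesoderm and endoderm of the early embryo. It signals through activin receptors and SMAD2 and SMAD3, and needs a co-receptor of the EGF-CFC family, which TDGF1 (CRIPTO) and CFC1 (CRYPTIC) encode, whereas Activin A reaches the same receptors without one. The pathway induces its own ligand and its own antagonists: LEFTY proteins block NODAL and its co-receptors, CER1 binds NODAL and BMP ligands outside the cell, and FST binds activins.

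The libraries held 9401 cells (BMP4), 7084 cells (CHIR) and 6876 cells (CHIR+Activin) after filtering, with 137174566, 185215378 and 130592423 UMIs, a UMI being 1 captured RNA molecule. Median depth was between 12623 and 22919.5 UMIs per cell, lowest in BMP4. Libraries shared between 8 and 12 cell barcodes per pair. All 5 markers of pluripotent origin that were listed for checking were present in every library, POU5F1 at 896 to 1070 CPM, which is counts scaled to the total of the library. Of 9 markers of neural, blood, endothelial or fibroblast cells, 7 were below 0.2 CPM in every library, while COL1A2 was at 51.2 to 85.3 CPM and COL1A1 at 10.8 to 14.0 CPM. Levels below are CPM from UMIs summed over all cells of a library, with exact 95% Poisson intervals, and such a sum cannot tell fewer expressing cells from less RNA per cell. Shares of cells are of cells thinned to 10000 UMIs each, 7041, 6892 and 6543 cells, with exact 95% Clopper-Pearson intervals. Both intervals cover counting error only, since cells of 1 library are not replicates and no test between treatments can be made.

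The BMP4 matrix includes droplets without a cell, which show the makeup of the RNA free in the suspension. Their CPM is scaled to the UMIs of the droplets, so it does not give how much of a gene's RNA was free. In 73901 droplets of 10 to 100 UMIs, 6 of the 8 members stood above their level in cells. LEFTY1 was at 66.8 CPM (59.9 to 74.3) against 32.0 CPM in cells, GDF3 at 36.7 CPM (31.7 to 42.3) against 21.3 CPM, FST at 134% of its level in cells and TDGF1 at 118%. CFC1 (125%) and LEFTY2 (112%) had intervals that included the level in cells. CER1 was lower in droplets, at 130 CPM (121 to 141) or 50.1% of its level in cells, and NODAL was at 76.1 CPM (68.8 to 84.1) or 87.6%. In 188 amnion-like BMP4 cells, defined by at least 2 TFAP2A UMIs and none of SOX17 or TBXT, a NODAL UMI was found in 14.9% of cells (10.1% to 20.8%) and a CER1 UMI in 5.32% (2.58% to 9.56%). The other BMP4 cells had 51.9% and 40.1%. LEFTY1 and LEFTY2 UMIs were each in 4.26% of amnion-like cells (1.85% to 8.21%), GDF3 in 3.72% and TDGF1 in 19.7%. FST did not separate them: 18.1% of amnion-like cells (12.9% to 24.3%) and 19.1% of other cells held an FST UMI. Median depth before thinning was 14972 UMIs in the amnion-like cells and 14385 in the others. The part of free RNA in the shares below was not tested, and cell-free droplets of the CHIR and CHIR+Activin libraries were not analysed here.

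Both ligands were higher in the CHIR libraries than in BMP4. NODAL stood at 86.9 CPM (85.4 to 88.5) in BMP4, 177 CPM (175 to 179) in CHIR and 178 CPM (176 to 181) in CHIR+Activin. The levels in CHIR and CHIR+Activin lie within each other's counting error, and the log2 ratio between them was 0.01 (-0.01 to 0.04). Against BMP4 the log2 ratios were 1.03 and 1.04. A NODAL UMI was found in 50.9% (49.7% to 52.1%), 79.5% (78.5% to 80.4%) and 78.5% (77.5% to 79.5%) of thinned cells, and in 56.8%, 93.2% and 89.4% of unthinned cells. NODAL UMIs were spread over many cells in the CHIR libraries, with at most 11 in a cell. GDF3, a related ligand that acts through the same receptors, stood at 21.3 CPM (20.5 to 22.0) in BMP4, 47.7 CPM (46.7 to 48.7) in CHIR and 56.9 CPM (55.6 to 58.2) in CHIR+Activin. Its log2 ratios over BMP4 were 1.17 (1.11 to 1.23) and 1.42 (1.36 to 1.48), and 17.4%, 36.5% and 40.8% of thinned cells held it (21.8%, 62.8% and 57.7% unthinned). The 2 ligands thus had the same order of BMP4 below the other libraries, but GDF3 alone was also apart between CHIR and CHIR+Activin beyond counting error.

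Of the 2 co-receptors, TDGF1 was lowest in BMP4 and CFC1 highest there. TDGF1 varied least of the members compared, at 145 CPM (143 to 147) in BMP4, 207 CPM (205 to 209) in CHIR and 220 CPM (217 to 222) in CHIR+Activin. Its log2 ratios over BMP4 were 0.51 (0.49 to 0.54) and 0.60 (0.58 to 0.63), and 69.1%, 84.6% and 87.3% of thinned cells held it (75.1%, 95.9% and 95.4% unthinned). CFC1 was close to absent outside BMP4: 276 UMIs were counted in BMP4, 1 in CHIR and 4 in CHIR+Activin. That is 2.01 CPM (1.78 to 2.26) in BMP4, with a CFC1 UMI in 2.02% of thinned cells (2.72% unthinned). The log2 ratio over BMP4 was -8.54 for CHIR (-13.85 to -6.05) and -6.04 for CHIR+Activin (-7.92 to -4.66). CFC1 has a near-identical copy, CFC1B, which was at 0 UMIs in all libraries. The upper 95% limits for it were 0.0269, 0.0199 and 0.0282 CPM. Of 90-base windows in the last 500 bases of the longest CFC1 transcript, 63.0% also occur in CFC1B, so the CFC1 count is uncertain. For TDGF1, 34.8% of such windows occur in the copy TDGF1P3, which held 325, 647 and 473 UMIs.

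**Figure D1:**
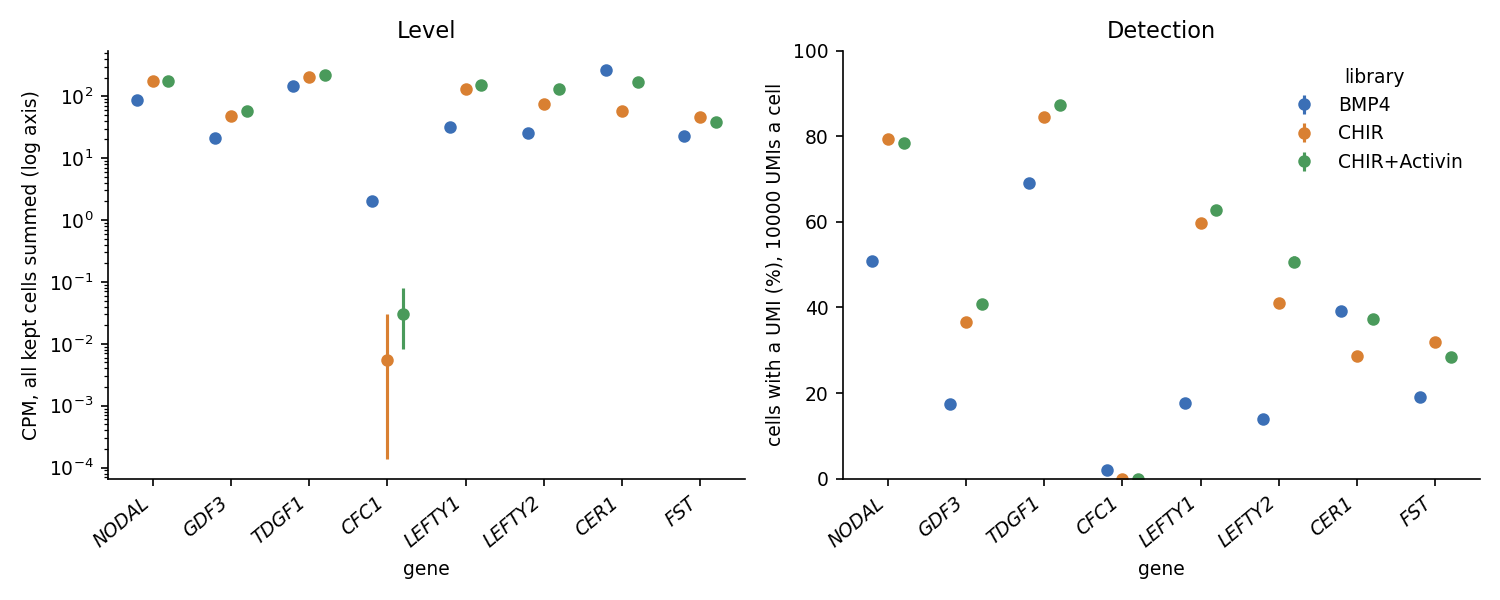
Level (left, CPM on a log axis, all kept cells summed) and detection (right, percent of cells with a UMI at 10000 UMIs a cell) of the 8 genes, by library. Bars are exact 95% intervals for counting error. CER1 and CFC1 are highest in BMP4, and the other genes are lowest there.

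The LEFTY genes were the antagonists with the lowest levels in BMP4 relative to the CHIR libraries. LEFTY1 stood at 32.0 CPM (31.1 to 33.0) in BMP4, 129 CPM (128 to 131) in CHIR and 153 CPM (151 to 155) in CHIR+Activin. LEFTY2 stood at 25.3 CPM (24.5 to 26.2), 76.1 CPM (74.8 to 77.3) and 130 CPM (128 to 132). The log2 ratio of LEFTY1 over BMP4 was 2.01 for CHIR (1.96 to 2.06) and 2.26 for CHIR+Activin (2.21 to 2.30), and that of LEFTY2 was 1.59 (1.53 to 1.64) and 2.36 (2.30 to 2.41). In CHIR+Activin over BMP4, LEFTY2 had the 5th and LEFTY1 the 8th highest ratio of 9968 genes compared. A LEFTY1 UMI was found in 17.7%, 59.7% and 62.8% of thinned cells (20.7%, 78.6% and 74.7% unthinned), and a LEFTY2 UMI in 13.9%, 40.9% and 50.7% (16.9%, 61.2% and 62.0% unthinned). The copies can be told apart at the 3' end: 0 of 411 windows of 90 bases in the last 500 bases of either transcript occur in the other.

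LEFTY1 and LEFTY2 did not keep a fixed ratio. BMP4 cells gave 1.27 LEFTY1 UMIs per LEFTY2 UMI (1.21 to 1.32), CHIR cells 1.70 (1.66 to 1.73) and CHIR+Activin cells 1.18 (1.16 to 1.21). Between CHIR and CHIR+Activin, LEFTY2 was higher by 0.77 (0.74 to 0.80) on the log2 scale and LEFTY1 by 0.25 (0.22 to 0.27). Measured against the ligand, LEFTY1 and LEFTY2 together gave 0.660 UMIs per NODAL UMI in BMP4, 1.16 in CHIR and 1.58 in CHIR+Activin. These ratios compare the libraries and are not ratios of molecules in the cell, as capture can differ between genes.

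CER1 was highest in BMP4 and lowest in CHIR. It stood at 260 CPM (257 to 263) in BMP4, 58.4 CPM (57.3 to 59.5) in CHIR and 168 CPM (166 to 170) in CHIR+Activin. The CHIR level was 4.45-fold below BMP4, a log2 ratio of -2.15 (-2.19 to -2.12), and the CHIR+Activin level 1.55-fold below it, at -0.63 (-0.65 to -0.61). CHIR+Activin was 2.88-fold above CHIR, at 1.52 (1.49 to 1.56), the 6th highest ratio of 9821 genes compared. The share of cells with a CER1 UMI differed less: 39.2% (38.1% to 40.4%), 28.6% (27.6% to 29.7%) and 37.4% (36.2% to 38.6%) of thinned cells (42.8%, 45.0% and 45.8% unthinned). The difference lay largely in the amount per cell, with 6.74, 2.07 and 4.59 CER1 UMIs per thinned cell that held any. Variance over mean per cell, a measure that grows with the level, was 11.3, 3.76 and 11.1 for CER1, 3.95, 1.99 and 3.35 for LEFTY2, and 1.20 to 1.41 for NODAL. The 10% of cells with most CER1 held 62.8%, 65.1% and 72.8% of its UMIs. By this measure LEFTY2 (84.4%) and LEFTY1 (75.5%) stood above CER1 in BMP4, and below it in the CHIR libraries, at 37.3% to 48.0%. GDF3 (65.8%) and CFC1 (100%) stood above CER1 in BMP4 too. The measure grows as fewer cells hold a gene, and 13.9%, 17.7% and 39.2% of thinned BMP4 cells held LEFTY2, LEFTY1 and CER1. CER1 UMIs per NODAL UMI were 2.99 in BMP4, 0.330 in CHIR and 0.941 in CHIR+Activin.

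FST stood at 23.1 CPM (22.3 to 23.9) in BMP4, 46.4 CPM (45.5 to 47.4) in CHIR and 38.3 CPM (37.3 to 39.4) in CHIR+Activin. It was the only one of the 7 members compared that was lower in CHIR+Activin than in CHIR, with a log2 ratio of -0.28 (-0.33 to -0.23). Over BMP4 the ratios were 1.01 (0.95 to 1.07) and 0.73 (0.67 to 0.80). An FST UMI was found in 19.1%, 31.8% and 28.5% of thinned cells (24.6%, 55.2% and 42.9% unthinned).

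Counted together, 7 members had at least 10 CPM in a library of each pair, CFC1 being the exception. Between CHIR and BMP4, 5 of the 7 (NODAL, GDF3, LEFTY1, LEFTY2 and FST) were at least 2-fold higher in CHIR and 1 (CER1) at least 2-fold lower, while 2.85% and 3.09% of all 10122 genes compared were. Between CHIR+Activin and BMP4, 4 of the 7 (NODAL, GDF3, LEFTY1 and LEFTY2) were at least 2-fold higher and 0 lower, against 1.84% and 2.88% of 9968 genes. Between CHIR+Activin and CHIR, 1 of the 7 (CER1) was at least 2-fold higher and 0 lower, against 0.183% and 0.0204% of 9821 genes. Median log2 ratios of the members were 1.03, 1.04 and 0.25, beside 0.03, -0.01 and -0.05 over all genes compared. These counts describe 3 libraries without replicates, for members chosen with earlier results of these data known. NODAL and FST lie at the 2-fold line in CHIR over BMP4, and with size factors taken as the median of ratios neither passed it.

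The rest of the pathway was compared through a list of 31 genes. Of these, 23, 23 and 22 had at least 10 CPM in a library of the pair. LHX1, a homeobox gene of the anterior streak and a target of the pathway, was the only one at least 2-fold apart, with 126 CPM in BMP4, 4.83 CPM in CHIR and 30.2 CPM in CHIR+Activin. Its log2 ratios of -4.71, -2.06 and 2.64 had the order of CER1. None of the 3 receptors compared (ACVR1B, ACVR2A and ACVR2B), the 2 convertases that cut the ligand precursors (FURIN and PCSK5), the 5 transducers or the 3 other inhibitors was 2-fold apart in any pair. FOXH1, the DNA-binding partner of SMAD2, was at 84.2, 84.6 and 84.8 CPM. EOMES and MIXL1, streak genes downstream of the pathway, were higher in BMP4, at 154 CPM against 80.7 and 95.1 CPM for EOMES and 282 CPM against 171 and 174 CPM for MIXL1. The MIXL1 value is of a line with a reporter at this gene. GSC, also listed as a target or feedback gene, was lower in CHIR than in BMP4 but higher in CHIR+Activin. For GSC the log2 ratios over BMP4 were -0.40 (-0.48 to -0.31) for CHIR and 0.16 (0.08 to 0.24) for CHIR+Activin. Feedback inhibitors of SMAD signalling had no common order: PMEPA1 was higher outside BMP4, at 61.8, 109 and 95.9 CPM, SMAD7 was higher in BMP4, at 27.9, 18.0 and 20.1 CPM, and SKIL was at 164, 164 and 150 CPM. Of the other ligands, INHBA, which encodes the subunit of Activin A, was at 17, 19 and 17 UMIs, INHBB at 60, 2 and 4 UMIs and GDF1 at 0 UMIs, so transcripts of NODAL and GDF3 were accompanied by few of activin genes.

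CER1 and NODAL are antagonist and ligand of 1 pathway with opposite orders between BMP4 and CHIR, and their promoter windows are shown for that reason. The windows run from 250 bases before to 50 bases after the gene start, in RefSeq's table for GRCh38.p14, 5′ to 3′ on the strand of the gene. The CER1 window lies at chr9:14722684-14722983 and the NODAL window at chr10:70441632-70441931, both on the minus strand. For the counts, the sources used here give no build. Capitals mark matches to any of the motifs searched on both strands: TGTGGATT and TGTGTATT (FOXH1), CAGACA (SMAD), AGGTGTGA (T-box) and ATCAAAG (TCF).
CER1: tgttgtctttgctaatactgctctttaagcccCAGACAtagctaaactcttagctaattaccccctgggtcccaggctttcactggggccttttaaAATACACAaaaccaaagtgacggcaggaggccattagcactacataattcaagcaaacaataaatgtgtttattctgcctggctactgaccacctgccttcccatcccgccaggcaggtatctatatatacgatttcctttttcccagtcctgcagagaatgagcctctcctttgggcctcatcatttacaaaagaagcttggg
NODAL: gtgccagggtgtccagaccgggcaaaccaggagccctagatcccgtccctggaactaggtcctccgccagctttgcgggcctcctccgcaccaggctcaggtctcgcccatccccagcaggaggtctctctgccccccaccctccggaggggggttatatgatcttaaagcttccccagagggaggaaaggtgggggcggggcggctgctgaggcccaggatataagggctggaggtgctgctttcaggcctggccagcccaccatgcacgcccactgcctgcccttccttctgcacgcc
The CER1 window holds CAGACA at -218 and AATACACA, the reverse complement of TGTGTATT, at -154, counted from the gene start to the first base of the match. The NODAL window holds none of these letters, and neither do those of GDF3, TDGF1 (listed as CRIPTO, with 2 windows), CFC1 and FST. Of 35116 promoter windows of this length, 1.58% hold a FOXH1 motif, 16.9% the SMAD motif, 0.980% the T-box motif and 2.62% the TCF motif. Promoter entries were matched for 6 of the 8 members, those without being LEFTY1 and LEFTY2. A match describes the letters of a window and not a bound site.

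Within a library, detection of 1 member was compared between cells with and without another. The LEFTY pair gave the highest ratio of such shares in BMP4: 29.3% of LEFTY1-positive cells held LEFTY2 (26.8% to 31.9%), against 10.5% of LEFTY1-negative cells (9.75% to 11.4%). In CHIR the shares were 45.9% and 33.7%, and in CHIR+Activin 57.6% and 39.1%. LEFTY2 was in turn the gene most like LEFTY1 over cells in CHIR and CHIR+Activin, by the correlation of log counts (r = 0.17 and 0.23 over 6892 and 6543 cells that share a library and a depth), and the 2nd of 11548 genes in BMP4 (r = 0.27 over 7041 cells). Correlations this low in sparse counts are given as descriptions. Most BMP4 cells with a LEFTY transcript showed only 1 of the genes: 5.20% of cells held both, 12.5% LEFTY1 alone and 8.66% LEFTY2 alone. A cell that showed 1 of the genes at this depth may still express the other. In CHIR+Activin 36.2% of cells held both, 26.6% LEFTY1 alone and 14.5% LEFTY2 alone.

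**Figure D2:**
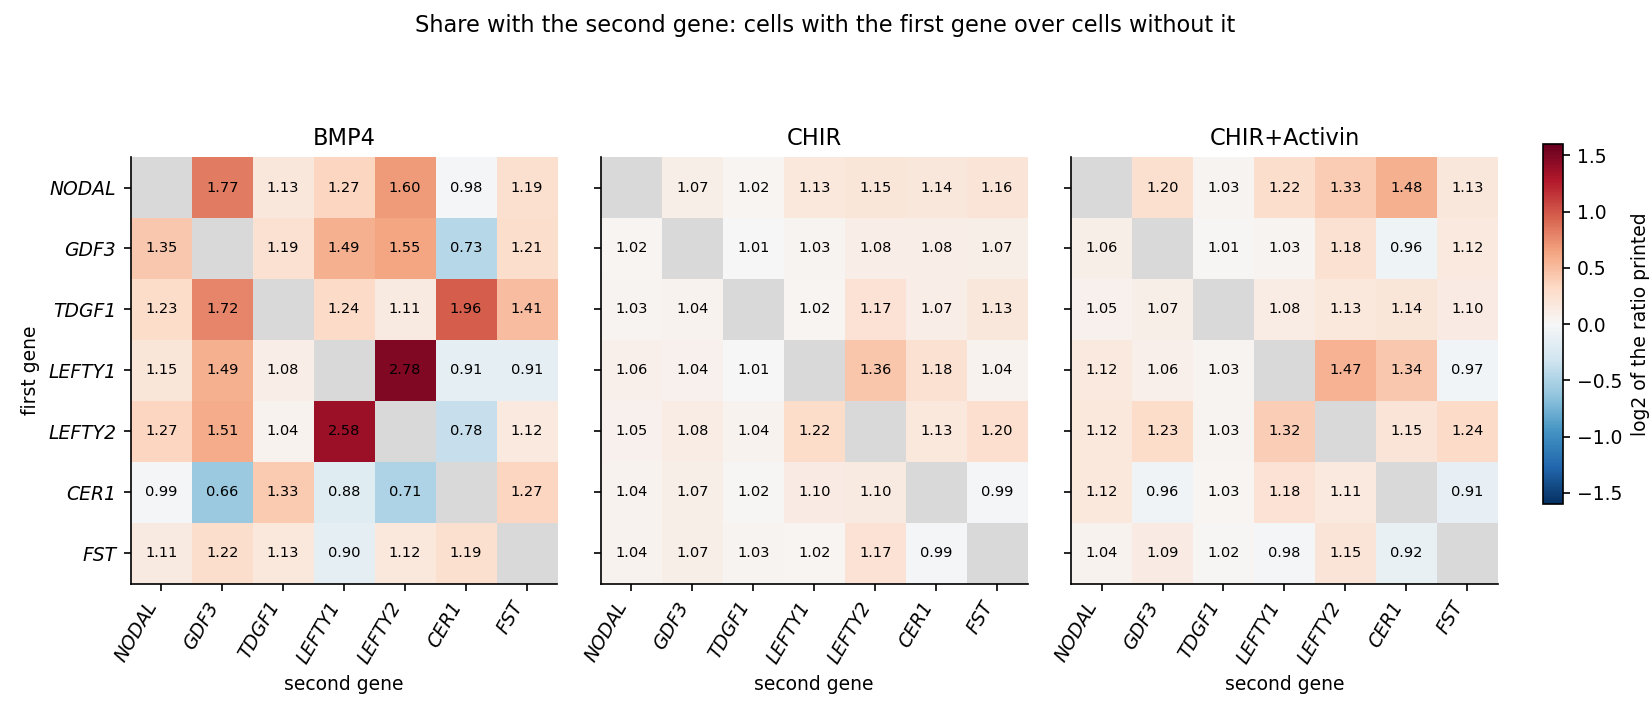
Ratio of the share of cells with the second gene (columns) between cells with and without the first gene (rows), in thinned cells of each library. Printed numbers are the ratio and colour its log2. LEFTY1 with LEFTY2 and TDGF1 with CER1 stand out in BMP4, where CER1 falls below 1 with GDF3 and LEFTY2.

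CER1 was found mostly without a LEFTY gene in BMP4 and mostly with one in the CHIR libraries. CER1 without either LEFTY gene was found in 29.9% of BMP4 cells (28.8% to 31.0%) and CER1 with a LEFTY gene in 9.32% (8.65% to 10.0%). In CHIR the order was the other way round, with 6.57% (6.00% to 7.18%) and 22.1% (21.1% to 23.1%), and in CHIR+Activin with 6.45% (5.87% to 7.07%) and 30.9% (29.8% to 32.1%). Either LEFTY gene was in 26.4% of all BMP4 cells, 73.3% of CHIR cells and 77.4% of CHIR+Activin cells, so these shares largely follow how common the LEFTY genes were. Within a library the differences were small. LEFTY1 was in 16.3% of CER1-positive BMP4 cells (14.98% to 17.8%) and 18.6% of CER1-negative ones (17.5% to 19.8%), with overlapping intervals. LEFTY2 was in 11.1% (9.97% to 12.4%) and 15.6% (14.6% to 16.8%). In CHIR the shares were 63.6% and 58.1% for LEFTY1 and 43.9% and 39.8% for LEFTY2. In CHIR+Activin they were 69.4% and 58.9% for LEFTY1 and 54.2% and 48.7% for LEFTY2, so both genes were somewhat more common beside CER1 in the CHIR libraries. GDF3 was less common in CER1-positive BMP4 cells, at 13.3% (12.1% to 14.6%) against 20.1% (18.9% to 21.3%). CER1 in BMP4 went instead with the co-receptor: 46.2% of TDGF1-positive cells held CER1 (44.8% to 47.6%), against 23.6% of TDGF1-negative cells (21.8% to 25.4%). The same shares were 28.9% and 27.0% in CHIR and 38.0% and 33.3% in CHIR+Activin.

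Ligand, co-receptor and feedback antagonist were found together less often in BMP4 than elsewhere. NODAL, TDGF1 and at least 1 LEFTY gene were found together in 11.5% of BMP4 cells, 50.7% of CHIR cells and 55.4% of CHIR+Activin cells. Taken singly, NODAL was in 50.9%, 79.5% and 78.5% of cells and TDGF1 in 69.1%, 84.6% and 87.3%. A LEFTY gene was in 26.4%, 73.3% and 77.4%, so the shares found together largely follow how common each gene was. NODAL with none of LEFTY1, LEFTY2 and CER1 was found in 1497 of 7041, 1034 of 6892 and 685 of 6543 cells. Neither co-receptor was found in 30.2%, 15.4% and 12.7% of cells. The median number of members found per cell was 2, 4 and 4, and 8.51%, 0.435% and 0.581% of cells held none. A gene without a UMI at this depth may still be expressed in the cell.

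Antagonist levels followed the NODAL level of the cell in different directions. Cells were grouped by NODAL UMIs after thinning, at 0, 1, 2, 3 to 4 and 5 to 9. In BMP4, mean CER1 UMIs per cell were 2.91, 2.77, 2.17, 1.64 and 0.68 from the lowest to the highest NODAL group, of 3456 to 65 cells. In CHIR they were 0.44, 0.48, 0.61, 0.81 and 0.92, and in CHIR+Activin 1.19, 1.75, 1.66, 2.07 and 2.44. Cells with 3 or more NODAL UMIs thus had 0.530 times the CER1 of cells with none in BMP4, but 1.90 times in CHIR and 1.80 times in CHIR+Activin. LEFTY1 went up with NODAL in CHIR, from 1.14 to 1.73 UMIs per cell, and in CHIR+Activin, from 1.17 to 1.88, while in BMP4 it stayed between 0.15 and 0.35. LEFTY2 was at 0.93 UMIs in cells without NODAL and 1.80 in the highest NODAL group of CHIR+Activin, and at 0.65 and 0.90 in CHIR. In BMP4 its means were 0.19, 0.30, 0.31, 0.25 and 0.45 over the 5 groups, the last of 65 cells (0.30 to 0.64).

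**Figure D3:**
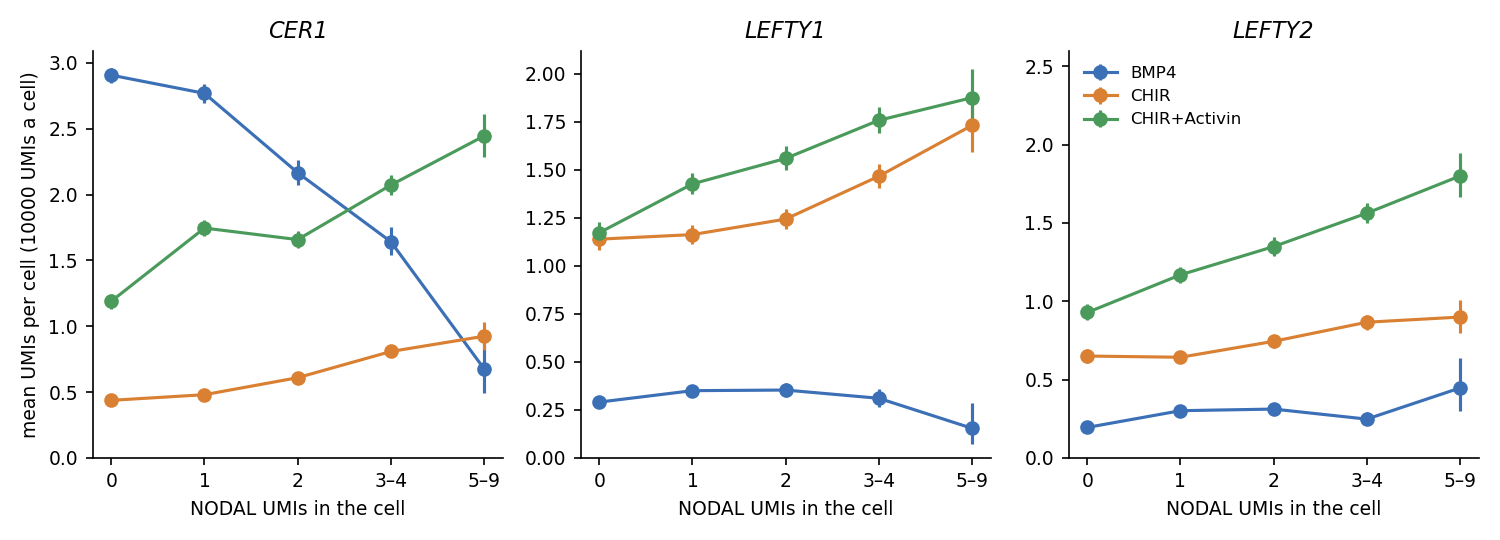
Mean UMIs per cell of CER1, LEFTY1 and LEFTY2 (each on its own axis) against the NODAL UMIs of the cell, in cells thinned to 10000 UMIs, by library. Bars are exact 95% Poisson intervals for counting error. CER1 goes down with NODAL in BMP4, from 2.91 to 0.68, and up in both CHIR libraries.

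The relation of CER1 to NODAL was also taken within streak cells, by a choice made after these values were seen. Among BMP4 cells with at least 2 EOMES UMIs, mean CER1 was 5.89 UMIs in the 1270 cells without NODAL and 2.63 in the 304 cells with 3 or more. In CHIR the same groups had 0.98 and 1.78 UMIs. In CHIR+Activin they had 5.27 and 5.56, with 5.58 and 4.67 in cells with 1 and 2 NODAL UMIs, so no steady order remained there. The direction in BMP4 and in CHIR was the same in MIXL1-positive cells, with 4.76 and 2.02 UMIs in BMP4 and 0.80 and 1.27 in CHIR. NODAL-positive cells had a median mitochondrial share of 4.74% in CHIR against 4.20% in NODAL-negative cells, and 4.75% against 4.32% in CHIR+Activin, but 4.05% against 4.04% in BMP4. LEFTY2-positive cells had 4.95% against 4.32% in CHIR. The part of this in the relations between members was not tested.

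The members were then read in cells that carry lineage genes, taken as at least 2 UMIs of the gene after thinning, in gates of at least 50 cells. A cell can be in several gates. CER1 varied more between gates than the other 6 members compared. In BMP4 it stood at 401 CPM in MIXL1-positive cells against 59.6 CPM in the rest, a log2 ratio of 2.75 (2.68 to 2.82), and at 496 CPM in EOMES-positive cells against 105 CPM (2.24). In MESP1-positive cells, MESP1 being a mesoderm gene, CER1 was 1.75 higher on the log2 scale. In cells with SOX2, a gene of the undifferentiated epiblast, it was at 29.5 CPM, with a log2 ratio of -3.24 (-3.52 to -2.97). The same signs were found in the other libraries: MIXL1 gates gave 1.83 in CHIR and 3.02 in CHIR+Activin, and SOX2 gates -1.59 and -2.63.

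The LEFTY genes and GDF3 were higher outside the mesoderm gates of BMP4. LEFTY1 had log2 ratios of -1.61 (-1.77 to -1.46) in MESP1-positive, -1.63 in TBXT-positive and -1.53 in HAND1-positive cells, HAND1 marking extraembryonic and lateral mesoderm, and 1.56 (1.38 to 1.73) in SOX2-positive cells. LEFTY2 was at -1.76 in the MESP1 gate and 0.80 in the SOX2 gate. The TBXT gate of BMP4 held 566 LEFTY1 and 692 LEFTY2 UMIs, a ratio of 0.82 (0.73 to 0.92). No other gate had an interval of this ratio below 1. With 1 or 3 TBXT UMIs as the minimum the ratio was 0.95 and 0.86. GDF3 was at -2.01 (-2.32 to -1.72) in the HAND1 gate and 1.21 in the SOX2 gate. NODAL itself was lower in HAND1-positive cells, at 41.1 CPM against 100 CPM, while TDGF1 was at 128 CPM against 150 CPM. The rare co-receptor CFC1 had the opposite preference, with 4.71 CPM (3.69 to 5.93) in HAND1-positive BMP4 cells against 1.35 CPM in the rest. In CHIR, by contrast, the TBXT, MIXL1, EOMES, FOXA2 and SOX2 gates left LEFTY1 and LEFTY2 between -0.31 and 0.31 on the log2 scale. FOXA2, which marks anterior streak and endoderm, was reported only for the CHIR libraries, as 28 BMP4 cells passed. There LEFTY1 was higher and LEFTY2 lower: 0.31 and -0.31 in CHIR, and 0.31 and -0.45 in CHIR+Activin. FST was at -0.55 and -0.64 in those gates.

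**Figure D4:**
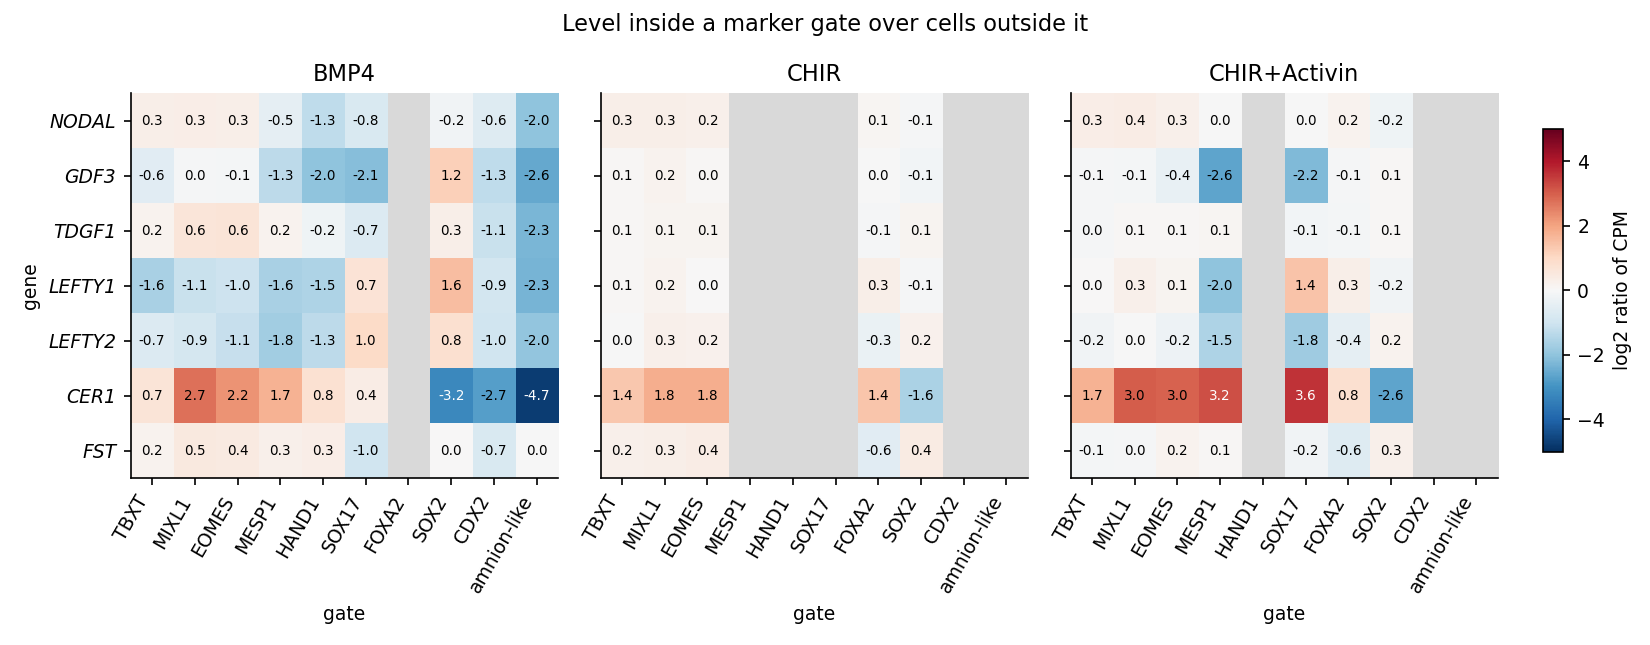
Log2 ratio of CPM between cells inside and outside each marker gate (columns) for 7 members (rows) in each library, from thinned cells. Grey marks gates of under 50 cells. CER1 is high in the MIXL1 and EOMES gates and low in the SOX2 gate of every library.

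Cells with SOX17, a gene of definitive endoderm and of human germ cells, split the LEFTY pair. In CHIR+Activin 80 cells passed, and all 80 held CER1, at 1844 CPM (1751 to 1940) against 151 CPM in the other cells. LEFTY1 stood at 394 CPM (351 to 440) in these cells against 147 CPM in the rest, a log2 ratio of 1.42 (1.25 to 1.58). LEFTY2 stood at 37.5 CPM (25.3 to 53.5) against 129 CPM, a log2 ratio of -1.79 (-2.35 to -1.27). The 80 cells held 315 LEFTY1 and 30 LEFTY2 UMIs, a ratio of 10.5 (7.21 to 15.8), beside 1.17 over all cells of the library. A LEFTY1 UMI was in 83.8% of them and a LEFTY2 UMI in 22.5%, against 62.6% and 51.1% of other cells. GDF3 was lower too, at 12.5 CPM against 57.6 CPM, while NODAL, at 179 CPM in and outside the gate, and TDGF1 were within counting error of the rest. With 1 or 3 SOX17 UMIs as the minimum the LEFTY ratio was 6.30 and 17.1, and without the cells of highest doublet score it was 13.5.

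SOX17-positive cells of BMP4, 658 in all, did not show this split. LEFTY1 had a log2 ratio of 0.67 (0.50 to 0.85) and LEFTY2 of 0.97 (0.78 to 1.15) over other cells, and the LEFTY ratio was 1.08 (0.91 to 1.27). GDF3 was lower, as in CHIR+Activin, at -2.14. Split by TFAP2A, a choice made after the gate was seen, the 216 cells with a TFAP2A UMI had 49.1 CPM of CER1 (40.2 to 59.4) and the 442 cells without had 477 CPM (457 to 498). TDGF1 was at 53.2 CPM (44.0 to 63.9) and 113 CPM (104 to 124). LEFTY1, at 39.8 and 51.6 CPM, and LEFTY2, at 43.1 and 45.0 CPM, had overlapping intervals in the 2 subsets. In CHIR+Activin 0 of the 80 cells held a TFAP2A UMI, and in CHIR only 2 cells passed the SOX17 gate. The MESP1 gate of CHIR+Activin, 54 cells, had CER1 in every cell, at 1487 CPM (1386 to 1594), but LEFTY1 at 37.0 CPM against 151 CPM in the rest.

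**Figure D5:**
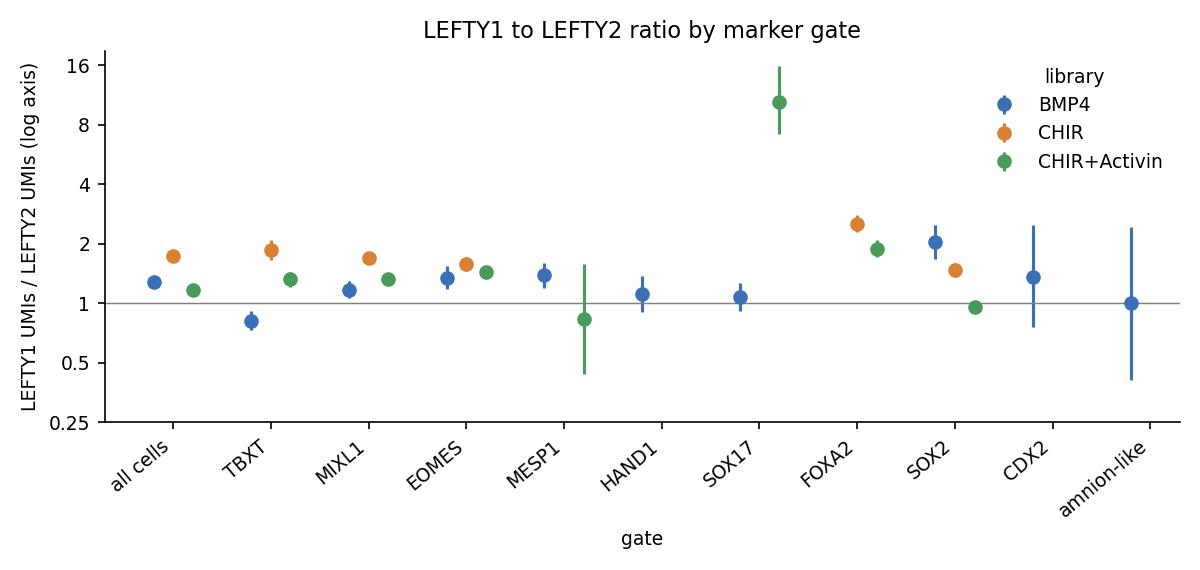
LEFTY1 UMIs per LEFTY2 UMI (log axis) over all thinned cells and in each marker gate of at least 50 cells, by library. Bars are exact 95% intervals for counting error and the line marks equal counts. The SOX17 gate of CHIR+Activin, at 10.5, lies above all other gates shown.

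The cells with most CER1 were looked at by a grouping chosen after its level was seen. Cells with 10 or more CER1 UMIs after thinning numbered 713 in BMP4, 35 in CHIR and 362 in CHIR+Activin. Of these 94.1%, 97.1% and 94.8% were in the MIXL1 gate and 0.281%, 0% and 0.829% in the SOX2 gate. The 362 CHIR+Activin cells included 73 of the 80 cells of the SOX17 gate. The 254 CHIR+Activin cells with 10 to 19 CER1 UMIs held a mean of 2.01 LEFTY1 and 0.55 LEFTY2 UMIs. A SOX17 UMI was in 23.6% of these 254 cells. Whether the LEFTY split of the SOX17 gate goes with SOX17 or with the CER1 level was not tested. The 179 BMP4 cells with 20 or more CER1 UMIs held a mean of 0.55 NODAL, 0.28 LEFTY1 and 0.09 LEFTY2 UMIs. The 108 CHIR+Activin cells held 2.04 NODAL, 2.42 LEFTY1 and 0.30 LEFTY2 UMIs. LEFTY2 was lower in both than in cells without CER1, which held 0.28 in BMP4 and 1.18 in CHIR+Activin. It did not go down step by step: cells with 1 to 4 CER1 UMIs held 0.28 LEFTY2 UMIs in BMP4 and 1.74 in CHIR+Activin, the latter above cells without CER1. LEFTY1 was at 0.36 and 1.34 in cells without CER1, so it was higher beside the highest CER1 in CHIR+Activin. In BMP4 the 179 cells were within counting error of cells without CER1. BMP4 cells with 1 to 4, 5 to 9 and 10 to 19 CER1 UMIs held 0.28, 0.19 and 0.22 LEFTY1 UMIs. These means were below that of cells without CER1 beyond counting error. LHX1 was at 9.15 and 5.04 UMIs in the cells with 20 or more CER1 UMIs, and at 0.21 and 0.01 in cells without CER1.

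Of non-member genes, those most like CER1 over cells were largely shared between libraries. In BMP4 they were LHX1 (r = 0.74), the growth factor gene FGF17 (0.66), CNKSR3 (0.62), the endoderm and mesoderm factor GATA6 (0.61) and LZTS1 (0.61), over 7041 cells of 1 library at 1 depth. In CHIR they were FGF17 (0.49), the WNT antagonist DKK1 (0.45), GATA6 (0.42), CDH2 (0.38) and ROR2 (0.37), over 6892 cells. In CHIR+Activin they were FGF17 (0.74), GATA6 (0.74), ROR2 (0.64), LHX1 (0.62) and DKK1 (0.61), over 6543 cells. FGF17 and GATA6 were among the 5 nearest genes in all 3 libraries. For the other 6 members ranked, the highest such correlation was 0.32, and FST reached 0.2 with no gene. NODAL in BMP4 was nearest to TUBB2B (0.28), IFITM1 (0.26), ENSG00000282048 (0.21), ENSG00000254339 (0.21) and GAL (0.21), and in CHIR+Activin to GAL (0.25), IFITM1 (0.20) and MT-CO2 (0.20). GDF3 in BMP4 was nearest to KIAA0825 (0.32), TUBB2B (0.27), ENSG00000254339 (0.26), ESRG (0.25) and XACT (0.23), so both ligands had TUBB2B among their nearest genes there. TDGF1 in BMP4 was nearest to EOMES (0.28), GPC6 (0.25), MIXL1 (0.24), FGF17 (0.23) and DNMT3B (0.23), with CER1 the 2nd of all genes (0.25). LEFTY1 in BMP4 was nearest to ENSG00000289533 (0.31), AK4 (0.26), RMST (0.26), GNA14 (0.25) and FOXD3-AS1 (0.23). LEFTY2 had PDPN (0.23) and PLPP1 (0.21) in BMP4, MT-CO2 (0.21) in CHIR, and MT-CO2 (0.23), FGF8 (0.23) and RYR2 (0.22) in CHIR+Activin. MT-CO2 is a mitochondrial transcript, and it stands beside the higher mitochondrial share of LEFTY2-positive cells given above.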

How the data were processed

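Single-cell RNA was captured with 10x Genomics 3' v3.1 chemistry, in 1 library per treatment. The deposited values are UMI counts in sparse matrices from Cell Ranger 8.0.1, per the file headers. Seurat is also named in the submitters' processing notes. The sources used here give neither the genome build nor the annotation release. The BMP4 matrix was unfiltered (1935344 barcodes), so cells were called by depth, at 3739 UMIs or more, a limit set at 10% of the 99th percentile among the 10000 deepest barcodes. The CHIR and CHIR+Activin matrices list 7706 and 7391 barcodes. Cells needed at least 2000 genes and at most 15% of UMIs from MT- genes, which removed 39, 622 and 515. Doublets were left in, and leaving out the 6% of cells with the highest Scrublet score was an alternative.

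A gene entered a comparison with at least 10 CPM in one or both of its libraries, and 2-fold was the limit for counting. Ratio intervals are exact conditional binomial ones at 95%. Thinning to 10000 UMIs left out 2360 (25.1%), 192 and 333 shallower cells. Genes were ranked for likeness when found in at least 5% of thinned cells, naming the 5 nearest non-members with r of at least 0.2. Shared windows were read from GENCODE v29 transcripts and promoters from RefSeq. Python 3.11.15, NumPy 2.4.6, SciPy 1.17.1, pandas 2.3.3, scanpy 1.11.5 and matplotlib 3.10.9 were used, and the ratio and co-detection steps were tested on simulated data. Members, gene lists and gates were chosen with earlier results of these data known. Groupings by CER1 level, NODAL groups within gates, the TFAP2A split and the LEFTY ratio by gate were added after values had been seen. Of the 31 pathway genes, values were to be printed for those 2-fold apart. Those of FOXH1, EOMES, MIXL1, GSC, PMEPA1, SMAD7, SKIL, INHBA, INHBB and GDF1 were added after they had been seen. Alternatives tried were a stricter cell filter, Scrublet removal, size factors, means of per-cell CPM, no minimum level, a 1.5-fold limit, 5000 UMIs for thinning and gates at 1 or 3 UMIs.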

Additional observations from a re-analysis of the deposited data

How the results depend on the processing

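With 1 library per treatment no replicate can be left out, and the intervals leave out variation between cultures. No paired analysis was possible because each group holds 1 library and no test was made. A stricter cell filter and removal of the cells with the highest Scrublet scores left the counts of members at least 2-fold apart at 6 for CHIR over BMP4, 4 for CHIR+Activin over BMP4 and 1 between the CHIR libraries. At 1.5-fold the second count was 7 and the third 2. With median-of-ratios size factors the first count was 4, made up of GDF3, LEFTY1, LEFTY2 and CER1, and with means of per-cell CPM it was 5, without FST. With no minimum level CFC1 joined the first and second counts, which became 7 and 5. None of the 21 log2 ratios between libraries changed sign under the alternatives run for them, and they moved by at most 0.13. Of the 63 co-detection ratios, some changed sign at 5000 UMIs, all of them with shares whose intervals overlapped at 10000 UMIs, and no others did. Of the log2 ratios by gate whose interval excluded 0, 4 changed sign with 1 UMI as the minimum: NODAL in the SOX2 gate of BMP4 (0.12), LEFTY2 in the TBXT gate (0.11), GDF3 in the MIXL1 gate (0.15) and LEFTY2 in the EOMES gate (0.0792) of CHIR+Activin. With 3 UMIs as the minimum, FST in the EOMES gate of CHIR+Activin changed sign (-0.0115). The cause of these sign changes was not tested. Shares of cells depend on the thinning depth, with a largest change of 26.3 percentage points without thinning, and rare transcripts such as CFC1 in the CHIR libraries are at the limit of this depth. The gate alternatives by Scrublet score and those for the LEFTY ratio and the NODAL groups were chosen after seeing the data.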
